A study of Mus musculus with 7 samples.

Results

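The genes of T cell identity and regulation were 33 genes of the 22173 in a table of mouse spleen RNA levels, chosen by symbol from a list of T cell receptor chains, receptor signalling proteins, lineage markers, transcription factors and inhibitory receptors. All 33 were found in the table and all passed the filter on low values, a mean of at least 1 FPKM (fragments counted on a gene, scaled to its length and to the library's depth) over the libraries. There were 7 RNA sequencing libraries, 3 of spleens given phosphate-buffered saline (PBS) and 4 of spleens that had 4 injections of a biomaterial named sHA-X to remodel them. Hepatocytes had been injected into the spleens of both groups, and the tissue was taken 30 days later. The strain, age and sex of the mice and the source of the hepatocytes are not given in the sources used here. The study compared the groups for liver functions of the spleen.

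T cells recognise antigen through a receptor whose signal leaves the cell surface through the CD3 chains. The kinase Lck phosphorylates these chains, Zap70 docks on them, and the adaptor Lat gathers the proteins that carry the signal on. In the spleen, T cells live mainly in sheaths around the arterioles of the white pulp, which naive cells enter and leave as they recirculate through blood and lymph. Regulatory T cells, which depend on the transcription factor Foxp3, restrain the others, and inhibitory receptors such as Ctla4, Tigit and Lag3 are found on regulatory cells and on activated T cells.

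The libraries held between 29543963 and 37142126 reads, as recovered from the steps of the FPKM values, and each member had between 75 and 9539 reads per library. By limma, with 11920 genes tested and an adjusted p under 0.05, sHA-X exceeded PBS for 1108 genes and PBS exceeded sHA-X for 600 (872 and 768 after median scaling, and 758 and 938 after quantile normalization). The B cell genes Cd79a and Cd79b and the macrophage genes Vcam1 and Lyz2 were abundant in all libraries. PBS replicate 2 also held pancreatic acinar transcripts (a summed level of 963 FPKM for 8 genes, against 15.4 to 35.1 FPKM elsewhere). In sHA-X replicate 2 the sum of 8 skeletal muscle genes was 201 FPKM, against 4.62 to 10.3 FPKM elsewhere, and in sHA-X replicates 3 and 4 the sum of 8 hepatocyte genes was 765 and 781 FPKM, against 2.56 to 23.3 FPKM in the other libraries. The labels do not tie libraries to individual mice, so the p-values speak only for the spread among these 7 libraries.

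Most T cell genes were slightly lower in sHA-X than in PBS spleens, and few of these differences passed the test. Of the 33 members, 3 fell at an adjusted p under 0.05 by limma (9.09%, where 5.03% of all genes tested were called lower) and none rose (9.3% of all genes tested were called higher). The 3 were the transcription factor genes Lef1 and Klf2 and the CD8 alpha chain gene Cd8a. The other 30 did not pass. At an unadjusted p under 0.05, 12 members were lower (36.4%, against 11.5% of all genes tested) and 1, Foxp3, was higher (3.03%, against 18.3%). The log2 change was below 0 for 25 of the 33 members, with a median of -0.26, against 44.2% and a median of 0.03 over all genes tested. The groups did not overlap for 6 members that were lower and 2 that were higher (18.2% and 6.06%), against 11.5% and 17.2% of all genes tested. In these whole-tissue libraries, fewer T cells, less RNA per T cell and more RNA from other cells cannot be told apart.

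**Figure D1:**
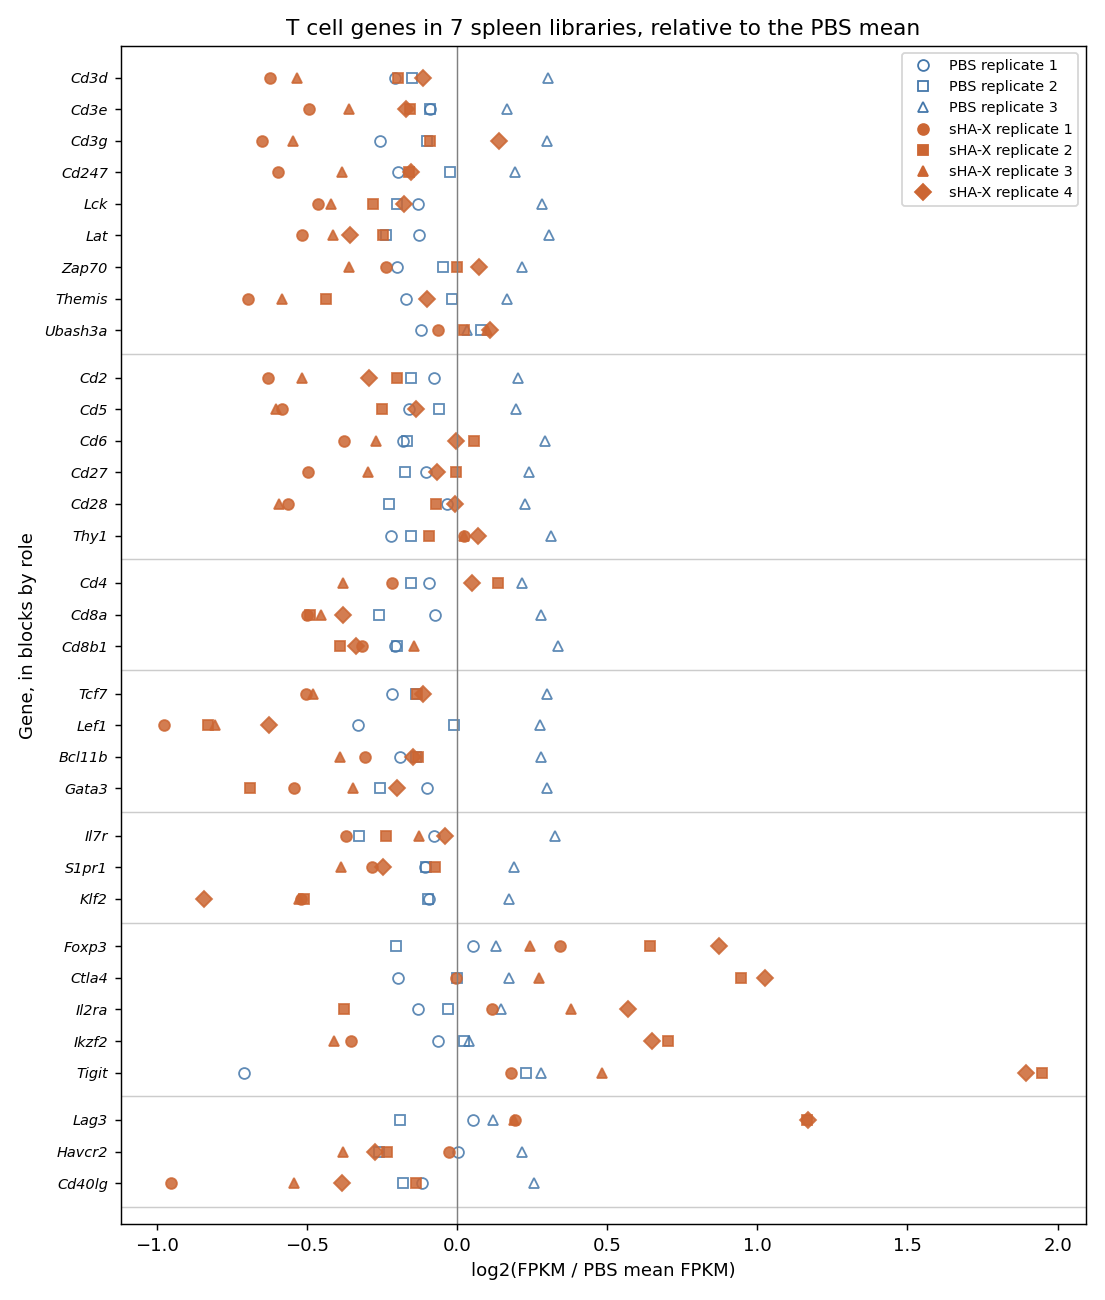
Level of each of the 33 T cell genes in each library, as log2 of its FPKM over the PBS mean; open symbols are PBS and filled symbols sHA-X, with 1 shape per replicate number and genes in blocks by role. PBS replicate 3 (open triangles) lies to the right of the other libraries for 26 of 33 genes, and sHA-X replicates 2 and 4 (filled squares and diamonds) lie far to the right for Tigit, Lag3 and Ctla4.

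The genes of the T cell receptor complex and of signalling from it were above the filter, and none of the 9 passed limma's test. At an unadjusted p under 0.05, 5 of them were lower (Cd3e, Cd247, Lck, Lat and Themis) and 0 higher, where 11.5% and 18.3% of all genes tested were. Cd3e, the CD3 epsilon chain that every T cell receptor needs, was 29.2, 29.2 and 34.9 FPKM in the PBS libraries and 22.1, 27.9, 24.2 and 27.6 FPKM in those of sHA-X, each in replicate order as for all genes that follow. All 4 sHA-X libraries lay below all 3 PBS libraries, by a small margin in replicates 2 and 4. Its log2 change of -0.28 had an SE of 0.10 and did not pass (adjusted p = 0.099 by limma). Cd3g, the gamma chain, was 51.6, 57.6 and 75.9 FPKM in PBS and 39.4, 58.0, 42.2 and 68.0 FPKM in sHA-X, so the groups overlapped widely (adjusted p = 0.50). The delta chain gene Cd3d (35.4 ± 7.17 and 27.8 ± 4.77 FPKM, mean ± SD in PBS and sHA-X) and the zeta chain gene Cd247 (6.22 to 8.16 and 4.72 to 6.42 FPKM) had adjusted p of 0.22 and 0.17. For Cd3d, Cd3e, Cd3g and Cd247 alike, sHA-X replicates 1 and 3 were the lowest of the 7 libraries and PBS replicate 3 the highest.

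The signalling genes behind the receptor had the same order of libraries, with Ubash3a as the exception. Lat, the adaptor, was 36.4, 33.8 and 49.2 FPKM in PBS and 27.9, 33.6, 29.9 and 31.1 FPKM in sHA-X. The groups touched without overlapping, and the log2 change was -0.35 (SE 0.13, adjusted p = 0.099 by limma). Lck was 53.6, 51.0 and 71.3 FPKM in PBS and 42.6, 48.3, 43.9 and 51.9 FPKM in sHA-X (adjusted p = 0.13), and sHA-X replicate 4 alone reached the PBS range. Zap70 was 11.1 ± 1.65 and 10.2 ± 1.41 FPKM (adjusted p = 0.60). Themis, a T cell protein needed for thymic selection, differed by -0.38 on the log2 scale (SE 0.13, adjusted p = 0.081, and 0.029 without sHA-X replicate 4). Ubash3a, a phosphatase family member that damps receptor signals, was 5.70 ± 0.407 and 5.87 ± 0.326 FPKM, a log2 change of 0.04 with a 95% interval of -0.13 to 0.20.

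Among the surface and costimulatory genes the closest to the threshold was Cd2, an adhesion receptor that is not confined to T cells. It was 95.1, 90.2 and 115 FPKM in PBS, and 64.7, 87.3, 70.1 and 81.9 FPKM in sHA-X. The groups did not overlap (log2 change -0.40, SE 0.12, adjusted p = 0.067 by limma, and 0.043 after quantile normalization). Cd5, an inhibitory receptor that also marks B-1 cells, had means of 18.1 ± 2.37 and 13.9 ± 2.27 FPKM in PBS and sHA-X (adjusted p = 0.10). The related receptor gene Cd6 and the costimulatory receptor genes Cd27 and Cd28 had log2 changes of -0.12, -0.19 and -0.27 (adjusted p between 0.32 and 0.62). Thy1, a surface protein of T cells that stromal cells also carry, was 54.1 ± 11.4 and 54.4 ± 2.61 FPKM. Its log2 change was 0.03, with a 95% interval of -0.25 to 0.30, and its sign turned with the scaling (-0.01 after median scaling or quantile normalization).

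Of the coreceptor genes, Cd8a fell and Cd4 did not pass. Cd8a (NCBI gene 12525, GRCm38 chromosome 6, 71373427 to 71379171) was 28.3, 24.9 and 36.1 FPKM in PBS, and 21.0, 21.2, 21.7 and 22.8 FPKM in sHA-X. The sHA-X libraries lay within 2 FPKM of each other and below every PBS library. The log2 change was -0.42 (SE 0.11, adjusted p = 0.040 by limma). Leaving out PBS replicate 1 ended the call (adjusted p = 0.10), as did fits without sHA-X replicate 1, 2 or 3 (0.088, 0.086 and 0.083) or 4 (0.071), with no filter on low values (0.070), or without trend and robust variance (0.055). Cd8b1, the CD8 beta chain, is confined to T cells more tightly than Cd8a. It was 30.3, 30.5 and 44.2 FPKM in PBS and 28.1, 26.7, 31.7 and 27.7 FPKM in sHA-X, with overlap between the groups (log2 change -0.27, SE 0.13, adjusted p = 0.23). Cd8a is also carried by the type 1 conventional dendritic cells of the spleen. The called genes among 8 conventional dendritic cell genes went both ways. Clec9a and Xcr1 fell, and Cadm1 rose from 3.12 to 4.41 FPKM (adjusted p = 0.047 by limma). Clec9a went from 10.7 to 5.46 FPKM (adjusted p = 0.0018), and Xcr1 from 5.78 to 4.01 FPKM (adjusted p = 0.023; lost, with values to 0.058, when PBS replicate 2 was dropped or any of sHA-X replicates 1 to 3). The list of 8 conventional dendritic cell genes had these 2 lower and Cadm1 higher (5.03% of all genes tested were called lower and 9.3% higher). The Cadm1 call was lost when any library but PBS replicate 3 was dropped (adjusted p up to 0.15), and also with no filter (0.072), after median scaling (0.064) or quantile normalization (0.098), and without trend and robust variance (0.052). The list's summed level was 64.6 to 83.3 FPKM in PBS and 55.9 to 68.9 FPKM in sHA-X. The part of dendritic cells in the Cd8a result was not tested.

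Cd4 was 25.2, 24.2 and 31.3 FPKM in PBS, and 23.2, 29.6, 20.7 and 27.9 FPKM in sHA-X. These ranges lay almost on top of each other (log2 change -0.09, 95% interval -0.41 to 0.23, adjusted p = 0.72 by limma). The ratio of Cd8a to Cd4 took values of 1.12, 1.03 and 1.16 in PBS, against 0.909, 0.716, 1.05 and 0.820 in sHA-X. The ratio was highest in PBS replicates 1 and 3, and sHA-X replicate 3 lay between PBS replicates 1 and 2, so the groups overlapped.

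Lef1, a partner of beta-catenin that keeps naive T cells in their resting programme, had the lowest ratio of sHA-X to PBS means of the 33 genes. Lef1 (NCBI gene 16842, GRCm38 chromosome 3, 131110297 to 131224357) was 11.9, 14.9 and 18.2 FPKM in PBS, and 7.63, 8.44, 8.57 and 9.71 FPKM in sHA-X. Every sHA-X library lay below every PBS library, and the PBS libraries spread over a wider range. The mean in sHA-X was 0.573 times that in PBS, and the log2 change of -0.72 had an SE of 0.13 (adjusted p = 0.0099 by limma). It stayed called in each of the 7 fits that left out 1 library, with 0.038 the highest adjusted p, and was lost when the second library of each group was left out (0.085). Tcf7, the close relative that acts with Lef1 in naive and memory T cells, was 11.4, 12.0 and 16.3 FPKM in PBS and 9.32, 12.1, 9.47 and 12.2 FPKM in sHA-X. Replicates 2 and 4 of sHA-X lay within the PBS range (adjusted p = 0.26). Bcl11b, which maintains T cell commitment, and Gata3, the factor of helper type 2 cells that is also needed in the thymus, had log2 changes of -0.18 and -0.26 (adjusted p = 0.31 and 0.17).

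Klf2, which switches on the receptors that let naive T cells leave tissue and is also high in B cells and endothelium, was the other transcription factor gene that fell. Klf2 (NCBI gene 16598, GRCm38 chromosome 8, 72319062 to 72321654) was 131, 130.3 and 157 FPKM in PBS, and 97.1, 97.8, 96.6 and 77.7 FPKM in sHA-X. The groups were well apart, and sHA-X replicate 4 lay below its 3 companions. The log2 change was -0.59 (SE 0.10, adjusted p = 0.0084 by limma, and at most 0.029 when any single library was dropped). S1pr1, the receptor for the lipid that draws T cells out of the spleen and a target of Klf2, was 60.6, 60.6 and 74.3 FPKM in PBS and 53.5, 61.9, 49.8 and 55.0 FPKM in sHA-X. Only replicate 2 of sHA-X reached the PBS range (log2 change -0.24, SE 0.10, adjusted p = 0.14). Il7r, the receptor for the survival factor of naive T cells, was 30.7 ± 7.13 and 26.9 ± 2.63 FPKM (adjusted p = 0.51).

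**Figure D2:**
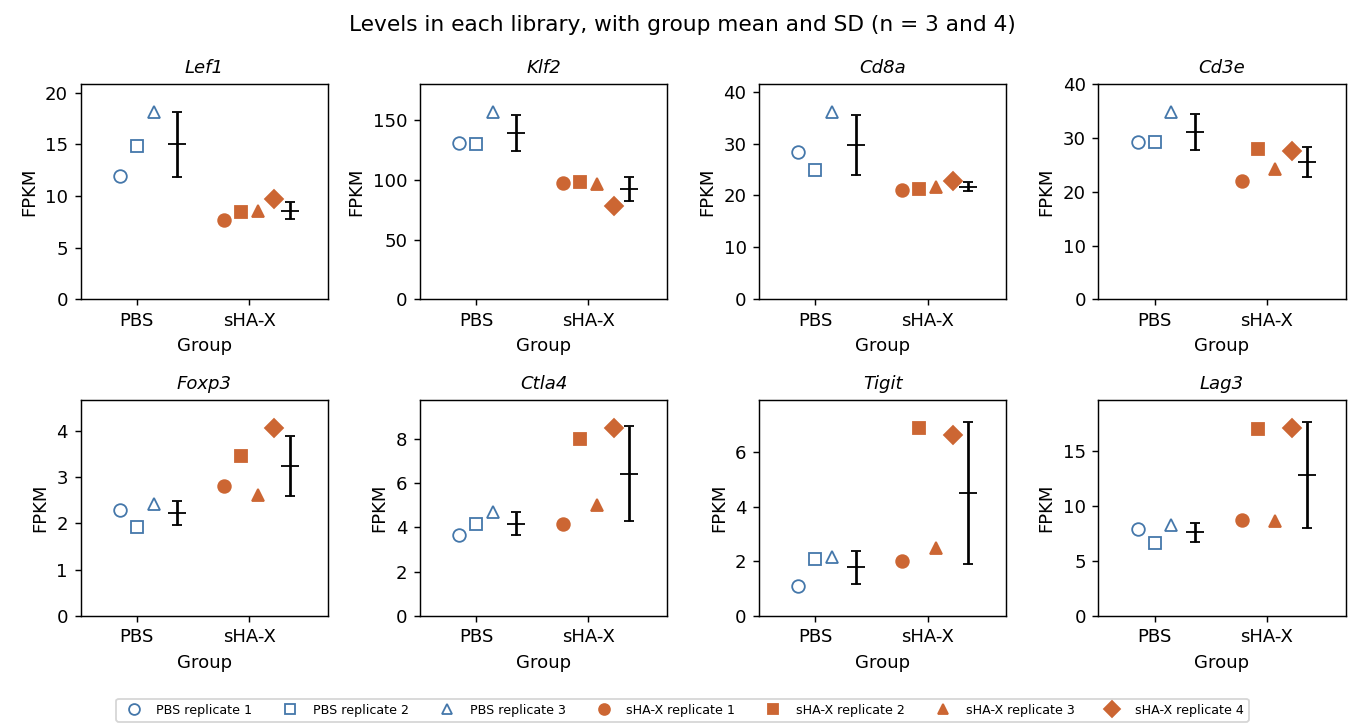
FPKM of 8 T cell genes in each library by group, with the group mean and SD beside the points (3 PBS and 4 sHA-X libraries). Lef1, Klf2 and Cd8a are lower in every sHA-X library than in any PBS library, and for Tigit, Lag3 and Ctla4 sHA-X replicates 2 and 4 stand above the other 5 libraries.

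The promoters of the 3 genes that were called lower are shown, with that of Foxp3, which did not pass the test (adjusted p = 0.077 by limma). Each is given as the 250 bases before the most upstream RefSeq start (GRCm38.p6). Capitals mark matches, on either strand, to CCACCC, a core of Klf family sites. The other letters searched on both strands were TGTGGT for Runx factors, CTTTGA for Tcf and Lef factors and AGATAA for Gata factors, with 0 matches in these 4 windows, and no base belonged to more than 1 match.
Lef1 promoter, chr3:131110047-131110296, plus strand: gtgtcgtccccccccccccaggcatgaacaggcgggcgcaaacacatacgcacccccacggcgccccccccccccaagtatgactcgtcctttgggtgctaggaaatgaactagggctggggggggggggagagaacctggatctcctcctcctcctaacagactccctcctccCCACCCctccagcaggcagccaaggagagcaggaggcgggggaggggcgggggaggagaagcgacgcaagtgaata
Klf2 promoter, chr8:72318812-72319061, plus strand: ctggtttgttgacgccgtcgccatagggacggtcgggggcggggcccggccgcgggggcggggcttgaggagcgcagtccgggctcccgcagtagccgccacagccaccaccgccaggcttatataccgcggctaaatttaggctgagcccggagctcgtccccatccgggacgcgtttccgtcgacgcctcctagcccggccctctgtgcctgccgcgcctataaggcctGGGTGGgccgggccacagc
Cd8a promoter, chr6:71373177-71373426, plus strand: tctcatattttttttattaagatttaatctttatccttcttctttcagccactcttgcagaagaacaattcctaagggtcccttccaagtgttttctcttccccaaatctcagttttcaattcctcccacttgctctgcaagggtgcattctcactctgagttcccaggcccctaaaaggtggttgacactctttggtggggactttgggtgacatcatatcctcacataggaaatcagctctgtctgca
Foxp3 promoter, chrX:7579426-7579675, plus strand: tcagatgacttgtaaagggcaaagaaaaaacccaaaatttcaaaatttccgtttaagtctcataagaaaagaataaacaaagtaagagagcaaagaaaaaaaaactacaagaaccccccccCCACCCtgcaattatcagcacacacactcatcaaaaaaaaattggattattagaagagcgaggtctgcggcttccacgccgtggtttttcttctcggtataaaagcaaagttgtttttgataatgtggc
The Lef1, Klf2 and Foxp3 windows held 1 CCACCC match each and the Cd8a window held 0. Promoter windows were found for 23 of the 33 members, 32 windows in all, as some genes have more than 1 (Lef1 has 4). The shares that follow are of windows, not of genes, and were not tested. CCACCC was in 14 of the 32 (43.8%, against 28.1% of all 32851 windows), TGTGGT in 12.5% (14.0%), CTTTGA in 12.5% (13.8%) and AGATAA in 3 of the 32 (9.4%, against 3281 of all windows). G and C made up 66.4% and 71.2% of the Lef1 and Klf2 windows and 42.8% and 37.6% of the Cd8a and Foxp3 windows. A match is only a match of letters, and its absence from a window says nothing about the factor.

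The genes of regulatory T cells were on average higher in sHA-X, unlike the receptor genes, and none of the 5 passed limma's test (1, Foxp3, at an unadjusted p under 0.05). Foxp3 (NCBI gene 20371, GRCm38 chromosome X, 7579676 to 7595243), the factor that defines these cells, was 2.30, 1.93 and 2.43 FPKM in PBS, and 2.81, 3.47, 2.63 and 4.06 FPKM in sHA-X. All 4 sHA-X libraries lay above all 3 PBS libraries. The log2 change was 0.39 (SE 0.13, unadjusted p = 0.014, adjusted p = 0.077 by limma), and the adjusted p was between 0.061 and 0.19 in the 7 fits with 1 library left out. The lowest library had 242 Foxp3 reads.

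The other 4 regulatory genes varied widely among the sHA-X libraries, and 3 of them had the same 2 libraries on top. Ctla4, which strips costimulatory ligands from antigen-presenting cells, was 3.64, 4.16 and 4.69 FPKM in PBS, and 4.15, 8.02, 5.03 and 8.48 FPKM in sHA-X. Tigit, an inhibitory receptor for nectin-like ligands, was 1.09, 2.09 and 2.17 FPKM in PBS, and 2.02, 6.88, 2.49 and 6.64 FPKM in sHA-X. In both genes sHA-X replicates 2 and 4 stood above the other 5 libraries, and replicates 1 and 3 were close to PBS. The log2 changes were 0.48 (SE 0.23, adjusted p = 0.22 by limma) for Ctla4 and 0.88 (SE 0.42, adjusted p = 0.23) for Tigit. Ikzf2, which encodes the factor Helios, was 2.33, 2.47 and 2.50 FPKM in PBS and 1.90, 3.96, 1.83 and 3.81 FPKM in sHA-X. Replicates 1 and 3 thus lay below PBS and replicates 2 and 4 above it (adjusted p = 0.76). Il2ra, the alpha chain of the interleukin 2 receptor, did not have this pattern: it was 3.21, 3.43 and 3.88 FPKM in PBS and 3.81, 2.70, 4.56 and 5.20 FPKM in sHA-X, with replicate 2 the lowest of all (adjusted p = 0.61).

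Of the activation and checkpoint genes, Lag3 had the pattern of Tigit. Lag3, an inhibitory receptor that binds class II molecules, was 7.88, 6.67 and 8.25 FPKM in PBS, and 8.69, 17.0, 8.67 and 17.1 FPKM in sHA-X. The groups did not overlap, but replicates 1 and 3 of sHA-X were only just above PBS (log2 change 0.63, SE 0.28, adjusted p = 0.20 by limma). Cd40lg, the ligand by which helper T cells license B cells and dendritic cells, was 4.20, 4.03 and 5.45 FPKM in PBS and 2.36, 4.15, 3.13 and 3.50 FPKM in sHA-X. Only replicate 2 of sHA-X reached the PBS range (log2 change -0.38, SE 0.15, adjusted p = 0.13). Havcr2, which encodes Tim-3 and is also expressed by macrophages and dendritic cells, had means of 20.3 ± 3.31 and 17.4 ± 1.82 FPKM in PBS and sHA-X (adjusted p = 0.28). Other genes with sHA-X replicates 2 and 4 on top, chosen after their values were seen, were Pdcd1, which encodes PD-1, at 3.42, 8.53, 3.14 and 8.78 FPKM in sHA-X (adjusted p = 0.27), and Gzmk, a granzyme gene, at 0.567, 4.37, 1.08 and 4.01 FPKM (adjusted p = 0.34). In PBS, Pdcd1 reached 3.31 FPKM and Gzmk 1.08 FPKM.

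PBS replicate 3 stood apart from the other PBS libraries in nearly all of these genes. It was the highest of the 3 PBS libraries for 32 of the 33 members and the highest of all 7 libraries for 26 of them, against 52.1% and 24.1% of all genes tested. Ubash3a was the member for which PBS replicate 2 was higher. Without PBS replicate 3, the median log2 change of the members was -0.11 in place of -0.26 (0.03 over all genes tested), and 22 of the 33 members were below 0. Cd6, Cd4 and Il7r then turned to log2 changes of 0.02, 0.02 and 0.01, and Thy1 went to 0.19 (adjusted p = 0.079). The change of Zap70 went from -0.11 to -0.01, that of Lck from -0.31 to -0.17, and that of Cd8b1 from -0.27 to -0.09. Lef1 (-0.58, adjusted p = 0.013), Klf2 (-0.50, adjusted p = 0.015) and Cd8a (-0.28, adjusted p = 0.035) were still called lower, where 5.33% of all genes tested were called lower and 10.6% higher. The median of the members was thus closer to 0 without this library, and the 3 calls were kept.

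**Figure D3:**
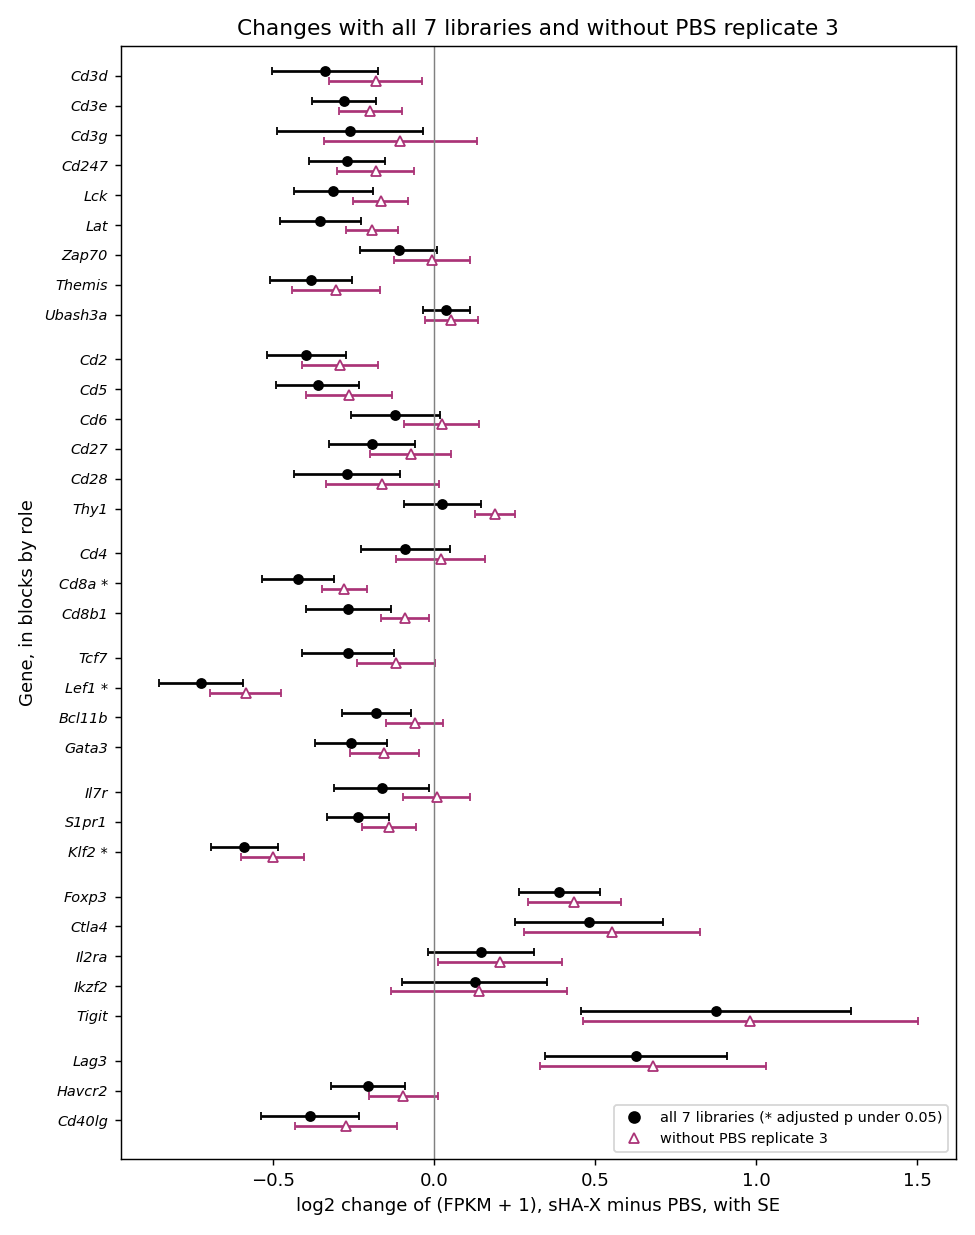
Log2 change of FPKM + 1 (sHA-X minus PBS) with its SE for each of the 33 genes, with all 7 libraries (black circles) and without PBS replicate 3 (open triangles); asterisks mark an adjusted p under 0.05 with all libraries. Most changes move toward 0 without PBS replicate 3, while Lef1 stays at -0.58 and Klf2 at -0.50.

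PBS replicate 3 and sHA-X replicates 2 and 4, which had the highest T cell receptor sums of their groups, had the lowest sums of red cell precursor genes. The summed level of the 9 receptor complex and signalling members was 229, 234 and 309.8 FPKM across the PBS libraries and 179, 227, 189.7 and 242 FPKM across those of sHA-X. The summed level of 6 red cell precursor genes, led by the haem synthesis gene Alas2 and the anion exchanger gene Slc4a1, was 1617, 1789 and 488 FPKM in PBS, and 1034, 626, 1121 and 693 FPKM in sHA-X. PBS replicate 3 had the highest T cell sum and the lowest red cell sum of all 7. In sHA-X, replicates 2 and 4 were both above replicates 1 and 3 for 23 of the 33 members (69.7%), against 27.1% of all genes tested. The sum of 8 cell cycle genes was low in the same libraries, at 622, 812 and 339.9 FPKM in PBS and 622, 515, 665 and 557 FPKM in sHA-X. None of the 6 red cell genes and none of the 8 cell cycle genes passed limma's test between the groups with all libraries, and 0 of them had an unadjusted p under 0.05. Without PBS replicate 3, Alas2 was called lower (log2 change -1.22, adjusted p = 0.015): it was 722, 678 and 270.1 FPKM in PBS and 344, 232, 375 and 273 FPKM in sHA-X. The part of red cell content in the T cell values was not tested.

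**Figure D4:**
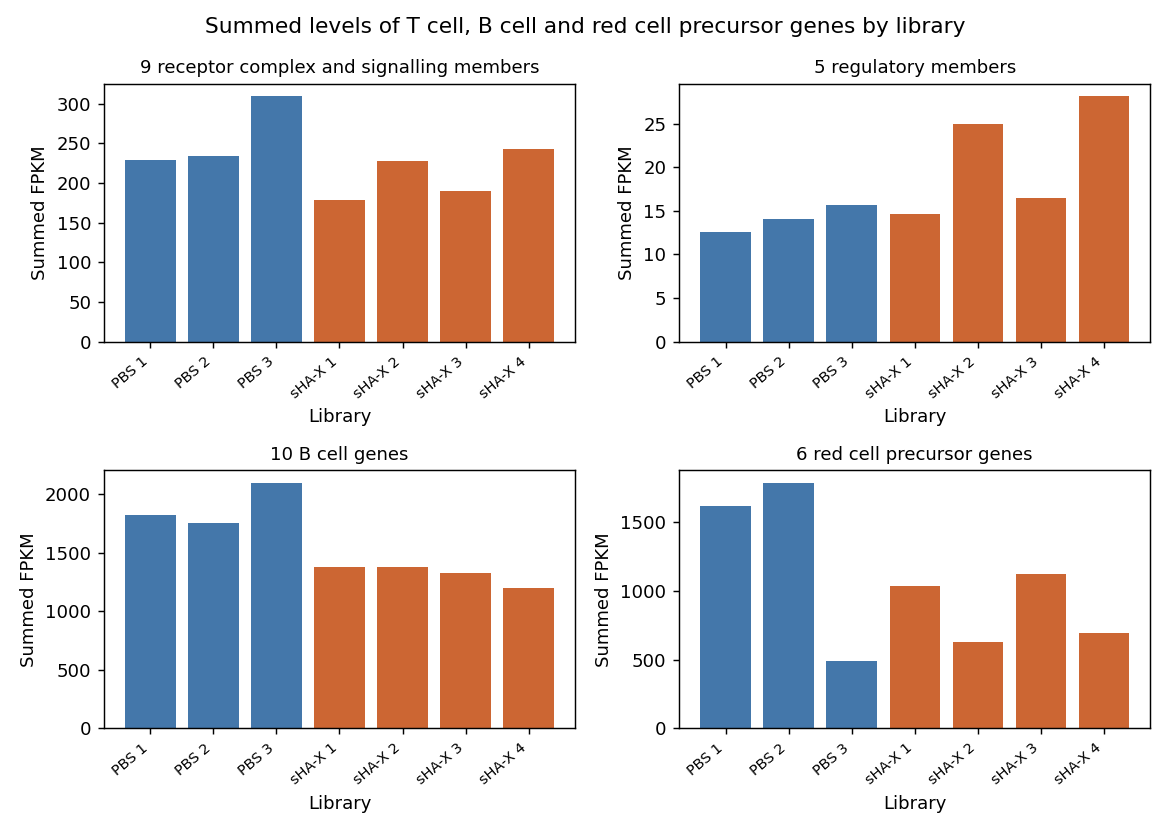
Summed FPKM by library of 9 receptor complex and signalling members, 5 regulatory members, 10 B cell genes and 6 red cell precursor genes (blue PBS, orange sHA-X). The receptor sum is highest and the red cell sum lowest in PBS replicate 3, and the regulatory sum is highest in sHA-X replicates 2 and 4 (up to 28.2 FPKM, against 12.6 to 16.5 FPKM in the other libraries).

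Levels were also set against Cd3e within each library, as ratios that describe the libraries and carry no test. Foxp3 stood at 0.0789, 0.0660 and 0.0696 of the Cd3e level in PBS, against 0.128, 0.124, 0.109 and 0.147 in sHA-X. The groups did not overlap, with sHA-X replicate 3 the nearest to PBS. Foxp3 by itself was higher, and Cd3e by itself lower, in every sHA-X library than in any PBS library. The ratio thus could not overlap, and its separation adds nothing to the values of the single genes. The same holds for the ratio of Lag3, which by itself was also higher without overlap. The ratio to Cd3e did not overlap in the higher direction for 5 members (Ctla4, Foxp3, Lag3, Tigit and Ubash3a), but 47.1% of all genes tested were also higher by this measure, so the count is nothing particular to regulatory genes. In the lower direction 2 members did not overlap, Lef1 and Klf2, against 1.02% of all genes tested. Lef1 was 0.409, 0.510 and 0.521 of Cd3e in PBS and 0.346, 0.303, 0.354 and 0.351 in sHA-X. Klf2 was 4.48, 4.46 and 4.50 times Cd3e in PBS and 4.40, 3.51, 3.99 and 2.81 times in sHA-X, with sHA-X replicate 1 close to PBS. Tcf7 had a ratio to Cd3e of 0.422 ± 0.0399 in PBS and of 0.422 ± 0.0222 in sHA-X.

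Among 30 further genes of T cell receptor signalling, 6 fell, none rose and 24 did not pass (5.03% of all genes tested were called lower and 9.3% higher), with a median log2 change of -0.17 (10 fell after quantile normalization). Grap2, the adaptor that links Lat to its partners, went from 39.1 FPKM in PBS to 26.3 FPKM in sHA-X (log2 change -0.56, adjusted p = 0.0014 by limma). Rasgrp1, which activates Ras below the receptor, went from 29.9 to 18.8 FPKM (-0.64, adjusted p = 0.0016). The receptors Cd226 and Cd96, which share ligands with Tigit and are also found on NK cells, fell by 0.63 and 0.60 on the log2 scale (adjusted p = 0.0059 and 0.0066). These 4 calls were kept in each fit with 1 library left out. The call of Txk, a Tec family kinase, was lost in 4 of those 7 fits, where the adjusted p reached 0.072. These fits lacked PBS replicate 2 or one of sHA-X replicates 1 to 3. Without PBS replicate 2, Cblb and Trat1 were among the genes called lower (adjusted p = 0.035 for each), and without sHA-X replicate 4, Prkcq and Skap1 (0.037 and 0.042).

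Of 12 further genes of naive T cells and lymphoid homing, 4 fell, none rose and 8 did not pass (against the same 5.03% and 9.3% of all genes), with a median log2 change of -0.32. Bach2, a repressor that keeps T and B cells from effector fates, went from 8.94 to 5.92 FPKM (log2 change -0.52, adjusted p = 0.0019 by limma). Foxp1 and Foxo1, which hold lymphocytes in quiescence and are active in B cells as well, fell by 0.36 and 0.39 on the log2 scale (adjusted p = 0.015 and 0.016). Ccr7, the homing receptor for the T cell zone, was 64.3, 61.5 and 73.5 FPKM in PBS and 53.0, 47.7, 57.2 and 50.1 FPKM in sHA-X. All 4 sHA-X libraries lay below PBS (adjusted p = 0.029), but dropping PBS replicate 1 (0.084), PBS replicate 3 (0.052) or any of sHA-X replicates 1, 2 and 4 (0.060, 0.070 and 0.073) ended the call. Without PBS replicate 3, Actn1 and Igfbp4 were called higher (adjusted p = 0.041 and 0.017) and Klf3 lower (0.027).

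Of 18 further regulatory T cell genes 14 passed the filter, and none was called in either direction by limma. At an unadjusted p under 0.05, Tnfrsf4, Nt5e and Lrrc32 were higher and 0 lower (18.3% and 11.5% of all genes tested). The median log2 change of the 14 was 0.12. Without PBS replicate 3, Lrrc32, which tethers latent TGF-beta on the cell surface, was called higher (adjusted p = 0.043 by limma). Without sHA-X replicate 1 the costimulatory receptor gene Tnfrsf4 was called higher (adjusted p = 0.010), and without sHA-X replicate 4 Gpr83 was called lower (0.031). Of 16 effector helper genes 6 passed the filter and 1 rose, Stat4, which carries interleukin 12 signals, from 16.0 to 24.6 FPKM (log2 change 0.58, adjusted p = 0.0077). Of these 16 genes, 2 were listed at 0 in every library. Of 15 cytotoxic and exhaustion genes 1 rose, Entpd1, which encodes the ATP-degrading enzyme CD39 and is also high in macrophages and endothelium, from 16.7 to 29.9 FPKM (log2 change 0.82, adjusted p = 0.0036). Both calls were kept with each single library left out, and Gzma was called lower without sHA-X replicate 3 (adjusted p = 0.0496). Over all genes tested, 9.3% were called higher and 5.03% lower, so a single call in such short lists says nothing about the list.

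B cell and macrophage lists held more called genes than the T cell members. Of 10 B cell genes 7 fell (5.03% of all genes tested did), with a median log2 change of -0.53, and their summed level was 1753 to 2098 FPKM in PBS and 1195 to 1374 FPKM in sHA-X. The B cell markers Fcer2a, Ms4a1 and Cd79b fell by 0.97, 0.59 and 0.65 on the log2 scale (adjusted p between 0.0012 and 0.0032 by limma). Of 12 macrophage and monocyte genes 9 rose (9.3% of all genes tested did), and their summed level was 3337 to 4056 FPKM in PBS and 4627 to 4784 FPKM in sHA-X. The macrophage genes Cd5l, Cd68, C1qb and C1qc rose by 1.60, 0.87, 1.07 and 0.98 on the log2 scale, and Lyz2 did not pass (-0.05, adjusted p = 0.77). Of the 9 calls, Adgre1 was lost in 5 and Ly6c2 in 6 of the 7 fits that lacked a library; PBS replicates 1 and 2 and sHA-X replicates 1, 3 and 4 mattered for both, and PBS replicate 3 for Ly6c2. Of 6 plasmacytoid dendritic cell genes Siglech and Ccr9 fell (-1.23 and -0.79), and Bst2 rose (0.37), a call lost when either of PBS replicates 1 and 2 was dropped, or sHA-X replicate 1 (highest adjusted p 0.094). Cox6a2 was called lower without sHA-X replicate 2 (adjusted p = 0.0046) and Klk1 without PBS replicate 2 (0.018). Those are the libraries that held skeletal muscle and pancreatic acinar transcripts, in that order. The part of such tissue in the Cox6a2 and Klk1 values was not tested. No acinar, muscle or hepatocyte gene passed the test, and 0 had an unadjusted p under 0.05. Of 7 NK cell genes 1 fell, Klri2, a call that none of the 7 fits lacking a library kept (highest adjusted p 0.080), and the summed level was 86.9 to 108.7 FPKM in PBS and 63.7 to 81.2 FPKM in sHA-X. Klrb1c was called lower without PBS replicate 2 (adjusted p = 0.029) and Klre1 without sHA-X replicate 1 (0.049). Of 6 genes listed for thymocytes 2 passed the filter and neither was called. Both, Dntt and Cd1d1, were lower at an unadjusted p under 0.05 (adjusted p = 0.086 and 0.082 by limma). Which cells of the spleen their transcripts came from was not tested. Cd1d1 was called lower without PBS replicate 2 (0.045) and Dntt after quantile normalization (0.045). A gene of this list that lay just under the filter, at 0.897 FPKM over all libraries, was called lower by limma with no filter (adjusted p = 0.011). It was also called lower in the fits that lacked an sHA-X library (adjusted p up to 0.035). It passed the filter there only because its higher PBS values then weighed more in the mean, so those calls are no further support. In the list of T zone stroma, Ccl21a, the chemokine that draws Ccr7-bearing cells, was 240, 224 and 277 FPKM in PBS and 218, 329, 147 and 264 FPKM in sHA-X (adjusted p = 0.85), again with replicates 2 and 4 above replicates 1 and 3. Pdpn and Cxcl12 of that list rose, calls lost when PBS replicate 1 was dropped (adjusted p = 0.051 for Cxcl12) and, for Pdpn, also when PBS replicate 2 was (at most 0.056). The part of B cell and macrophage content in the T cell values was not tested.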

How the data were processed

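RNA was sequenced from 7 spleen libraries, 3 PBS and 4 sHA-X, grouped by their titles. Per the submitters' processing notes, the tools were HISAT2, fastp, HTSeq, R 3.2.0 and DESeq2 and the build mm10, with no role or order. The deposited table holds FPKM values that the authors computed, 1 column per library. Its header does not name the unit. For a given gene and library, the values are whole multiples of what 1 read is worth there. That worth differed between genes, and between libraries it followed the recovered read totals. In sHA-X replicate 4 it was 0.863 of that in PBS replicate 1, and the total of PBS replicate 1 was 0.863 of that of sHA-X replicate 4. The values thus fit FPKM. Whole reads were recovered for 16889 of the 16889 genes above 0 in at least 2 libraries (within 0.01 of a read). No source used here says whether the kit kept strand, so reads of a gene and of an overlapping antisense gene cannot be told apart.

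Genes with a mean of at least 1 FPKM entered a limma 3.58.1 fit (trend, robust; R 4.3.3) of log2(FPKM + 1) on group alone, with Benjamini-Hochberg adjustment over all 11920 genes and a threshold of 0.05. Recovery and fit were tested on simulated data. This scale understates changes of low genes. SE and 95% intervals are limma's, and intervals are not adjusted. The members and gene lists were chosen with earlier results of these data known, so no list was tested, and counts of called genes are described beside the shares of all genes tested. All 33 members are named; of other lists, the text names up to 4 called genes with the smallest p, and others said to be chosen later or needed for a result; a few called genes of these lists are not reported here. Alternatives were other pseudocounts (0.1 and 0.5 FPKM), filters, scalings and variance models, a replicate block, and leaving out libraries. Promoter windows and coordinates are RefSeq's for GRCm38.p6, matched by symbol and NCBI gene number.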

Additional observations from a re-analysis of the deposited data

Results flagged for a closer look

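The rule that compares each sHA-X library with the other 3 was applied to 77 sets of values, and 3 stood out; chance gives about 1 in 20. Klf2 was 77.7 FPKM in sHA-X replicate 4, against 96.6 to 97.8 FPKM in replicates 1 to 3. The ratio of Lef1 to Cd3e was 0.303 in sHA-X replicate 2, against 0.346 to 0.354 in the others. The summed level of 8 skeletal muscle genes was 201.3 FPKM in sHA-X replicate 2, against at most 8.05 FPKM in its companions. The PBS group, with 3 libraries, was not examined in this way.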

How the results depend on the processing

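The 33 members had 521 values under the alternatives, of which 495 kept their direction and their side of the threshold. Lef1 was called lower in all but 1 (adjusted p = 0.085 without the second library of each group), Klf2 in all but 1 (0.051 with the replicate block), and Cd8a was lost in 8. Members called lower were 5 after quantile normalization, where Cd2 and Themis joined, and 1 with the replicate block; with 1 library left out they were 2 to 3. None was called higher under any alternative. The cause of these moves was not tested. Small log2 changes turned sign and were never called. Ubash3a was -0.033 after quantile normalization and -0.012 to 0.073 with 1 library left out. Thy1 was -0.0081 after median scaling, -0.011 after quantile normalization, -0.0074 without both second libraries and -0.072 to 0.19 with 1 library left out. With 1 library left out, Cd6 was -0.19 to 0.024, Cd4 -0.17 to 0.020, Il7r -0.31 to 0.0077 and Ikzf2 -0.0098 to 0.26, and Ikzf2 was -0.0019 without both second libraries. Other T cell list genes called lower were 10, and 17 after quantile normalization, 5 with the replicate block and 7 to 11 with 1 library left out; called higher were 2, and 2 to 5 with 1 library left out. Of all genes, 1108 were called higher and 600 lower; 938 were lower after quantile normalization, 304 higher and 86 lower with the replicate block, and 492 and 330 without both second libraries. With 1 library left out there were 488 to 1263 higher and 228 to 637 lower, fits with fewer samples. The labels do not say whether libraries with the same number in both groups are paired. The deviations of same-numbered libraries from their group means correlated at 0.15, -0.21 and -0.29 across genes. Those of PBS replicate 3 correlated at 0.24 with sHA-X replicate 2 and at 0.15 with sHA-X replicate 4. Of the same-numbered libraries, only replicate 1 of each group thus correlated positively. Some libraries with different numbers correlated more strongly, up to 0.245 for PBS replicate 2 with sHA-X replicate 3. These correlations cannot show whether same-numbered libraries shared a batch. The fewest reads behind a member's value were 75, for Tigit in PBS replicate 1.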
